A study of Homo sapiens with 17 samples.

Results

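The integrin and laminin chains of BJ fibroblasts were followed across proliferation, quiescence, oncogene-induced senescence and transformation. Members were taken by a rule on gene symbols, which was set with earlier results of these data known. The rule took every integrin alpha chain with a number or V in its name, every numbered integrin beta chain and every laminin alpha, beta or gamma chain. This gave 24 of the 9699 transcripts in the deposited table, and 23 of them are described. These are 14 integrin chains (11 alpha and 3 beta) and 9 laminin chains (5 alpha, 3 beta and 1 gamma).

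BJ cells are human fibroblasts, here immortalized with hTERT in every group. RNA-Seq measured mRNA levels in 9 samples, and Ribo-Seq, which sequences the mRNA fragments covered by ribosomes, measured translation in 8 samples. The authors had joined some replicates, so that the table held 12 columns, 6 of each assay. Proliferating cells grew in 10% fetal calf serum and formed a column in each of the sequencing runs, called C12 in the first and C3 in the later run. The first run also held quiescent cells (Q), made by serum depletion, and pre-senescent cells (preS), in which a tamoxifen-inducible RASG12V was switched on for 5 days with 1e-07 M 4-OHT-tamoxifen. The later run also held senescent cells (S), which carried the same construct and received the same tamoxifen dose for 14 days, and transformed cells (Tr). The transformed cells combined knockdowns of p16INK4A and of another gene with SV40 small T and a retroviral RASG12V. Their RASG12V was therefore delivered differently from that of preS and S, and no column held knockdown cells without it. The preS, S and Tr cells also grew in 10% serum, and the serum level of Q is not given. The purpose of the study was to see how RNA levels and translation change when growth and proliferation are limited or released.

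Integrins are cell-surface receptors built from 1 alpha and 1 beta chain, and the pair decides which matrix protein is bound. Laminins are secreted trimers of an alpha, a beta and a gamma chain that form the sheet of the basement membrane, and the alpha chain carries the main sites for integrins. Fibroblasts are known for integrins that bind collagen and fibronectin, and contribute several laminin chains to the basement membranes beside them.

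Levels are given as FPKM, that is, read fragments scaled to transcript length and to library size, which allows chains of different length to be compared. The authors had set every value below 1.0 FPKM to 1.0, called the floor here. Translation efficiency (TE) is the log2 of Ribo-Seq FPKM over RNA FPKM. Each condition was compared with the proliferating cells of its own run, and a chain counts as past 2-fold when the ratio is 2 or more. With 1 column for each group, run and assay, there was no spread between replicates, so no test, error or p-value could be given, and a ratio between single columns has no replicate check. The C12 and C3 columns carry the same condition label, so the ratios were also formed against the proliferating cells of the other run, and the counts in RNA and Ribo-Seq are given with both controls. The authors reported a batch effect of the sequencing run and for that reason compared only within a run. A ratio to the other run's column therefore also holds the difference between the runs. The files hold no read counts per transcript, so the reads behind each value are unknown. The paper lists the reads of each library, which were not used here. Outside ribosomal RNA, the Ribo-Seq library of S had fewer reads than those of C3 and Tr.

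The condition labels of the S and C3 Ribo-Seq samples are exchanged against their titles, and the titles were followed. Across all 9699 transcripts the Ribo-Seq column titled S had a Spearman correlation of 0.881 with S RNA and 0.755 with C3 RNA, and that titled C3 had 0.852 with C3 RNA and 0.773 with S RNA. All 10 fibroblast markers were in the table, with none of 5 endothelial, 1 of 7 leukocyte and 3 of 7 epithelial markers. The summed RNA of 6 cycling genes was 11.1 FPKM in S against 166.2 to 411.2 FPKM in the other columns. In Ribo-Seq their sum was 21.7 FPKM in the column titled S, 425.3 in that titled C3 and 214.7 to 543.0 in the others. Read by the condition labels, the low sum of 21.7 FPKM would belong to proliferating cells. RNA of CDKN2A (p16INK4A), a target of the knockdowns, was at 12.64 FPKM in Tr, 6.75 in C3 and 17.19 in C12. Its Ribo-Seq level was 5.51 FPKM in Tr, 8.92 in C3 and 13.00 in C12. Tr was thus above C3 and below C12 in RNA, and below both in Ribo-Seq. HRAS RNA was 2415.28 FPKM in C12, 1253.69 in Q, 2102.25 in preS, 1283.52 in C3, 2087.48 in S and 311.51 in Tr. The labelled RASG12V thus did not show as a higher HRAS level in Tr. The proliferating cells of C12 were also above preS and S, so HRAS RNA did not separate the induced columns from the others.

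The levels of the 23 chains spanned 3 orders of magnitude, from the floor to 3935 FPKM for ITGB1 in the Ribo-Seq of S. In all columns of both assays ITGB1 was the highest chain. The floor was reached by 14 of the 276 values of these chains, in 3 chains (ITGA7, ITGA10 and LAMA3). For ratios a chain had to average at least 2 FPKM over the 6 columns of an assay. In RNA 22 chains passed, without ITGA7, and in Ribo-Seq and TE 21 passed, without ITGA7 and LAMA3. All 9699 transcripts were filtered in the same way, which left 9203 in RNA, 9201 in Ribo-Seq and 8984 in TE.

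**Figure D1:**
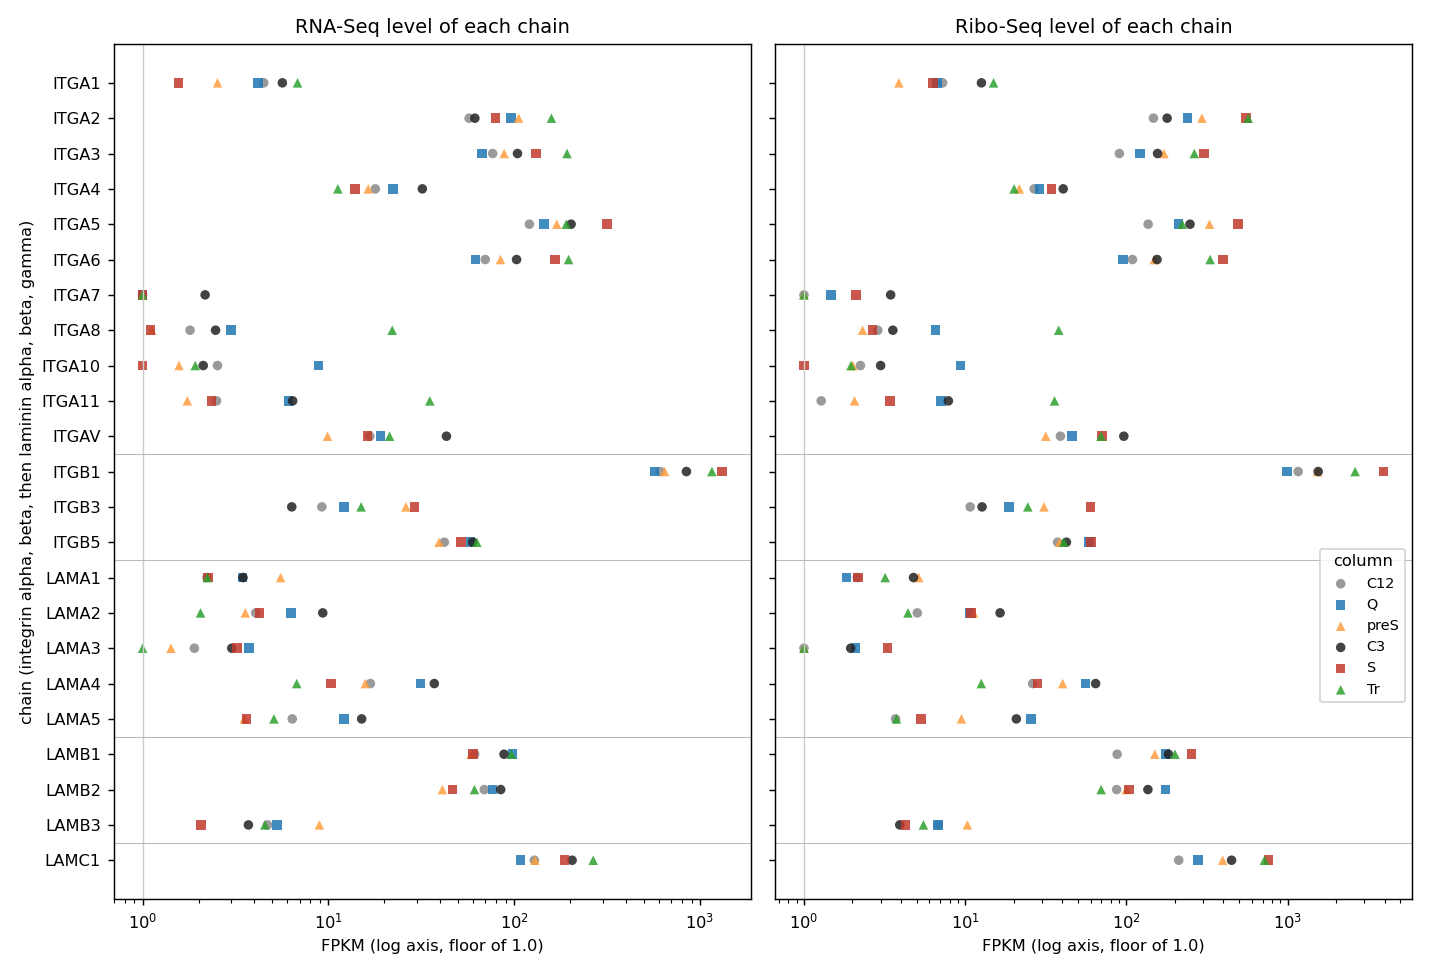
RNA-Seq (left) and Ribo-Seq (right) level of each of the 23 chains in FPKM on a log axis, with 1 symbol for each of the 6 columns and a grey line at the floor of 1.0. ITGB1 lies farthest right in both panels, and the green triangles of Tr stand apart for ITGA8 and ITGA11.

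Among the beta chains, ITGB1 is the common partner of the collagen, laminin and most fibronectin receptors. Its RNA level was 610.66 FPKM in C12, 567.93 in Q, 644.52 in preS, 844.49 in C3, 1314.47 in S and 1158.03 in Tr. The Ribo-Seq level was 1163.52 FPKM in C12, 994.63 in Q, 1535.37 in preS, 1549.03 in C3, 3935.09 in S and 2625.24 in Tr. S and Tr were the highest columns in both assays. Against C3, ITGB1 in S was 1.56-fold higher in RNA and 2.54-fold higher in Ribo-Seq, and against C12 the Ribo-Seq ratio was 3.38-fold. ITGB1 made up 89.0% (Q) to 94.2% (S) of the summed beta-chain RNA.

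ITGB3 pairs with ITGAV into a receptor for vitronectin and other RGD proteins, named after the Arg-Gly-Asp stretch that they carry. RNA-Seq gave 9.22 FPKM in C12, 12.17 in Q, 26.12 in preS, 6.35 in C3, 29.04 in S and 15.00 in Tr. In Ribo-Seq it was at 10.74 FPKM in C12, 18.67 in Q, 30.83 in preS, 12.73 in C3, 59.98 in S and 24.48 in Tr. The columns preS, S and Tr, whose labels name RASG12V, were above C12, Q and C3 in both assays, with preS and S the highest. In S the ratio to C3 was 4.57-fold in RNA and 4.71-fold in Ribo-Seq, and against C12 it was 3.15-fold and 5.58-fold. In preS the ratio to C12 was 2.83-fold and 2.87-fold, and against C3 it was 4.11-fold and 2.42-fold. In Tr the RNA ratio was 2.36-fold against C3 but 1.63-fold against C12. ITGB5, another partner of ITGAV, stayed between 39.37 and 62.86 FPKM in RNA and between 37.45 and 60.17 in Ribo-Seq.

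The collagen-binding alpha chains ITGA1, ITGA2, ITGA10 and ITGA11 all pair with ITGB1. ITGA2 was the most abundant of them, and its RNA level was 57.17 FPKM in C12, 95.97 in Q, 105.55 in preS, 61.39 in C3, 79.48 in S and 158.57 in Tr. Its Ribo-Seq level was 147.18 FPKM in C12, 238.96 in Q, 294.26 in preS, 179.00 in C3, 550.37 in S and 569.89 in Tr. Tr was the highest column in both assays, but S, below Q and preS in RNA, nearly reached Tr in Ribo-Seq. Against C3 the ITGA2 RNA ratio was 2.58-fold in Tr and 1.29-fold in S, and the Ribo-Seq ratio was 3.18-fold in Tr and 3.07-fold in S. All but the S RNA ratio were also past 2-fold against C12.

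ITGA11 is a collagen receptor known from fibroblasts. In RNA the chain was at 2.50 FPKM in C12, 6.10 in Q, 1.74 in preS, 6.42 in C3, 2.35 in S and 35.12 in Tr. Ribo-Seq gave 1.28 FPKM in C12, 7.08 in Q, 2.06 in preS, 7.87 in C3, 3.41 in S and 35.84 in Tr. Tr stood far above the other columns, whose highest value was C3 in both assays. The Tr ratio was 5.47-fold in RNA and 4.55-fold in Ribo-Seq against C3, and 14.0-fold and 28-fold against C12. C3 itself was 2.57-fold above C12 in RNA and 6.15-fold in Ribo-Seq. The Q ratio of 2.44-fold in RNA and 5.53-fold in Ribo-Seq against C12 therefore became 0.950 and 0.900 against C3.

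ITGA10, a collagen receptor best known from cartilage, was highest in quiescence. Its RNA level was 2.53 FPKM in C12, 8.84 in Q, 1.57 in preS, 2.12 in C3 and 1.92 in Tr, and S was at the floor. In Ribo-Seq the chain was at 2.24 FPKM in C12, 9.36 in Q, 2.01 in preS, 2.99 in C3 and 1.96 in Tr, again with S at the floor. The Q column was 3.49-fold above C12 in RNA and 4.18-fold in Ribo-Seq, and 4.17-fold and 3.13-fold above C3. S was at least 2.12-fold lower than C3 in RNA and at least 2.99-fold lower in Ribo-Seq, bounds set by the floor.

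ITGA1, a receptor for collagen of the basement membrane, was low in RNA, at 4.49 FPKM in C12, 4.18 in Q, 2.53 in preS, 5.65 in C3, 1.56 in S and 6.82 in Tr. In Ribo-Seq it was at 7.25 FPKM in C12, 6.70 in Q, 3.88 in preS, 12.62 in C3, 6.31 in S and 15.00 in Tr. Tr was highest in both assays, while S was lowest in RNA and preS lowest in Ribo-Seq. In RNA, S was 3.62-fold below C3 and 2.88-fold below C12. In Ribo-Seq S was exactly 2-fold below C3, on the threshold.

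The laminin-binding alpha chains ITGA3, ITGA6 and ITGA7 are the receptors that join the integrin and laminin families. ITGA6 RNA was 69.81 FPKM in C12, 61.98 in Q, 84.33 in preS, 102.93 in C3, 165.77 in S and 196.13 in Tr. ITGA6 Ribo-Seq was 109.10 FPKM in C12, 95.67 in Q, 149.18 in preS, 154.98 in C3, 398.73 in S and 330.87 in Tr. S and Tr were above all other columns in both assays. The Ribo-Seq ratio to C3 was 2.57-fold in S and 2.13-fold in Tr, and 3.65-fold and 3.03-fold to C12. ITGA3 had the same order at the top, with RNA from 67.27 FPKM in Q to 192.41 in Tr and Ribo-Seq from 90.50 FPKM in C12 to 302.71 in S. It stayed under 2-fold in the within-run comparisons. ITGA7, the chain of muscle, was above the floor in RNA only in C3, at 2.17 FPKM, and in Ribo-Seq at 3.45 FPKM in C3, 2.11 in S and 1.47 in Q.

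Of the RGD-binding alpha chains, ITGA5 is the main fibronectin receptor with ITGB1. ITGA5 RNA was 120.63 FPKM in C12, 144.86 in Q, 169.31 in preS, 202.30 in C3, 315.03 in S and 190.51 in Tr. Its Ribo-Seq level was 136.51 FPKM in C12, 210.37 in Q, 328.01 in preS, 248.31 in C3, 491.17 in S and 221.96 in Tr. S was the highest column of ITGA5 in both assays, and Tr was 1.06-fold below C3 in RNA and 1.12-fold below it in Ribo-Seq. ITGA5 in preS was 2.40-fold above C12 in Ribo-Seq but 1.32-fold above C3. In Ribo-Seq S was 2.21-fold above Tr.

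ITGA8, an RGD receptor for nephronectin, showed the largest ratios of all members in Tr against C3. RNA-Seq gave 1.80 FPKM in C12, 3.0 in Q, 1.12 in preS, 2.47 in C3, 1.10 in S and 22.05 in Tr. Ribo-Seq gave 2.87 FPKM in C12, 6.53 in Q, 2.31 in preS, 3.56 in C3, 2.67 in S and 38.04 in Tr. Only Tr was above 10 FPKM in either assay, and Q came next. The Tr ratio was 8.93-fold in RNA and 10.7-fold in Ribo-Seq against C3, and 12.25-fold and 13.3-fold against C12, where the ratios of ITGA11 were larger. Tr was 20.0-fold above S in RNA. In RNA, S was 2.25-fold below C3 and 1.64-fold below C12.

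ITGAV binds vitronectin, fibronectin and latent TGF-beta with several beta chains. In RNA the chain was at 16.71 FPKM in C12, 19.06 in Q, 9.89 in preS, 43.17 in C3, 16.22 in S and 21.33 in Tr. In Ribo-Seq the chain was at 38.99 FPKM in C12, 45.90 in Q, 31.65 in preS, 96.43 in C3, 70.75 in S and 69.68 in Tr. C3 was the highest ITGAV column in both assays. S and Tr were 2.66-fold and 2.02-fold below C3 in RNA, but against C12 S was 1.03-fold lower and Tr 1.28-fold higher. ITGA4, which binds VCAM1 and fibronectin, was likewise highest in C3. Its RNA level was 17.88 FPKM in C12, 22.25 in Q, 16.38 in preS, 32.02 in C3, 13.89 in S and 11.24 in Tr. ITGA4 Ribo-Seq was 26.80 FPKM in C12, 28.89 in Q, 21.66 in preS, 40.58 in C3, 34.28 in S and 20.12 in Tr. Against C3 its RNA was 2.31-fold lower in S and 2.85-fold lower in Tr, and against C12 1.29-fold and 1.59-fold lower. Fewer cells of a kind and less RNA in each cell cannot be told apart in bulk samples such as these.

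The promoters of ITGA8 and ITGA11, which were highest together in Tr, and of ITGA2, which was highest in Tr and past 2-fold in the Ribo-Seq of S, are shown so that their letters can be compared. They are the 250 bases before the RefSeq start in the GRCh38.p14 assembly, a different build from the hg19 of the deposited files, and a promoter was found for 19 of the 23 chains. Capitals mark a GC box, GGGCGG on either strand, where neighbouring matches may overlap. The ITGA8 promoter is at chr10:15719923-15720172 on the minus strand, that of ITGA11 at chr15:68432164-68432413 on the minus strand and that of ITGA2 at chr5:52989102-52989351 on the plus strand.
ITGA8: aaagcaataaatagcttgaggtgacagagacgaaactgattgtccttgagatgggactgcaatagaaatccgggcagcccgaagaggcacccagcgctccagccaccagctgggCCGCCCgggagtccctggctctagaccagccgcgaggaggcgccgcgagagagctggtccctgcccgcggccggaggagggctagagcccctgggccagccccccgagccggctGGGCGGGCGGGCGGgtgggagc
ITGA11: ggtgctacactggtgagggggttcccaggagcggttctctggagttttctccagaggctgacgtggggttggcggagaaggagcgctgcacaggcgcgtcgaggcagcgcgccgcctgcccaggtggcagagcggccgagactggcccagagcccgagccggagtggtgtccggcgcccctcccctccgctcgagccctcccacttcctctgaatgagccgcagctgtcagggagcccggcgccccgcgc
ITGA2: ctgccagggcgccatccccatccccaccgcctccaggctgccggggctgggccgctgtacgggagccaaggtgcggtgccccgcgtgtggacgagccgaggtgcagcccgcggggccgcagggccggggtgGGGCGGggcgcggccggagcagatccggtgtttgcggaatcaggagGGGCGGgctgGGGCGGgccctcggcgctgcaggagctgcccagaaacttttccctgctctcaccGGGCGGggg
ITGA8 and ITGA2 each had 4 GC boxes and ITGA11 had none. Of 35116 RefSeq promoters of this length, 42.6% held the motif. None of the 3 held TGANTCA, the AP-1 motif found in 6.57% of promoters, GGAATG, the TEAD motif found in 11.9%, or TATAAA, found in 10.7%. A match here is a run of letters and not a measured binding site.

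Among the laminin alpha chains, LAMA4, the chain of vessel walls and mesenchymal tissue, was the most abundant in every column of both assays. RNA-Seq gave 16.82 FPKM in C12, 31.25 in Q, 15.79 in preS, 37.13 in C3, 10.36 in S and 6.75 in Tr. Its Ribo-Seq level was 26.21 FPKM in C12, 55.62 in Q, 40.25 in preS, 64.47 in C3, 28.18 in S and 12.59 in Tr. Tr was the lowest column and C3 the highest in both assays. In Tr the level was 5.50-fold below C3 in RNA and 5.12-fold in Ribo-Seq, and 2.49-fold and 2.08-fold below C12. In S it was 3.58-fold below C3 in RNA but 1.62-fold below C12. LAMA4 was the only chain past 2-fold lower in Tr against both proliferating columns.

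LAMA2 is the main alpha chain around muscle fibres and nerves. In RNA the chain was at 4.06 FPKM in C12, 6.27 in Q, 3.57 in preS, 9.32 in C3, 4.26 in S and 2.05 in Tr. Ribo-Seq gave 5.05 FPKM in C12, 10.73 in Q, 11.29 in preS, 16.47 in C3, 10.88 in S and 4.42 in Tr. Tr was again the lowest column and C3 the highest in both assays. Tr was 4.55-fold below C3 in RNA and 3.73-fold in Ribo-Seq, and 1.98-fold and 1.14-fold below C12.

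LAMA5, a chain of most adult basement membranes, had an RNA level of 6.39 FPKM in C12, 12.11 in Q, 3.52 in preS, 15.10 in C3, 3.63 in S and 5.09 in Tr. In Ribo-Seq LAMA5 was at 3.70 FPKM in C12, 25.55 in Q, 9.48 in preS, 20.77 in C3, 5.32 in S and 3.75 in Tr. C3 and Q were the highest columns and differed little, while C12 and Tr were nearly equal in Ribo-Seq. C3 was 5.61-fold above C12 in Ribo-Seq, so that the Q ratio was 6.91-fold against C12 and 1.23-fold against C3. The Ribo-Seq ratio of Tr was 5.54-fold lower against C3 and 1.01-fold higher against C12.

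The remaining laminin alpha chains were low. LAMA1, a chain of the early embryo, had RNA levels of 2.22 FPKM in C12, 3.45 in Q, 5.53 in preS, 3.47 in C3, 2.25 in S and 2.23 in Tr. In Ribo-Seq the chain was at 2.14 FPKM in C12, 1.84 in Q, 5.15 in preS, 4.78 in C3, 2.16 in S and 3.19 in Tr. preS was highest in both assays, 2.49-fold above C12 in RNA and 1.59-fold above C3. LAMA3, the alpha chain of epidermal laminin, had RNA levels of 1.90 FPKM in C12, 3.74 in Q, 1.42 in preS, 3.02 in C3 and 3.22 in S, with Tr at the floor. Its Ribo-Seq level was at the floor in C12, preS and Tr, and 1.95 FPKM in C3, 2.09 in Q and 3.30 in S.

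The promoters of LAMA4 and LAMA2, which were lowest together in Tr, are shown in the same way as those of the integrins, with GGAATG or its reverse complement in capitals. That of LAMA4 is at chr6:112254568-112254817 on the minus strand and that of LAMA2 at chr6:128882888-128883137 on the plus strand.
LAMA4: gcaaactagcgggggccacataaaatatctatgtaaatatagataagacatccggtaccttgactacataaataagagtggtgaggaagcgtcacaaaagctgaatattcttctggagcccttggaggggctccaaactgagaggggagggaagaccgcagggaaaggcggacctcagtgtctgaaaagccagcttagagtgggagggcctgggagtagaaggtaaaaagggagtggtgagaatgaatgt
LAMA2: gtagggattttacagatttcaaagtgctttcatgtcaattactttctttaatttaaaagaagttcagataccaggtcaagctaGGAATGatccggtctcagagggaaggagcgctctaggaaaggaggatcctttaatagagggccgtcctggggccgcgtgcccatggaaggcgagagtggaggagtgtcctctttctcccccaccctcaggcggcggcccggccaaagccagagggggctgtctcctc
LAMA2 held the motif once, 167 bases before the start, and LAMA4 did not. Neither promoter held a GC box, the AP-1 motif or TATAAA. The GC content was 48.4% for LAMA4 and 53.2% for LAMA2, against 68% for ITGA8, 71.2% for ITGA11 and 76.4% for ITGA2.

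The beta chains LAMB1 and LAMB2 and the gamma chain LAMC1, which is found in most laminins, were far more abundant than the alpha chains. LAMC1 RNA was 128.31 FPKM in C12, 108.34 in Q, 129.29 in preS, 204.84 in C3, 185.98 in S and 266.07 in Tr. LAMC1 Ribo-Seq was 211.25 FPKM in C12, 279.08 in Q, 395.57 in preS, 449.48 in C3, 763.06 in S and 718.83 in Tr. Tr was highest in RNA and S in Ribo-Seq, but neither was past 2-fold against C3. Against C12 the LAMC1 ratio was 2.07-fold for Tr in RNA, and 3.61-fold for S and 3.40-fold for Tr in Ribo-Seq. LAMB1, the beta chain of most tissues, had RNA levels of 61.27 FPKM in C12, 97.99 in Q, 58.63 in preS, 88.11 in C3, 59.94 in S and 96.57 in Tr. LAMB1 Ribo-Seq was 87.65 FPKM in C12, 174.81 in Q, 150.06 in preS, 182.46 in C3, 253.14 in S and 200.32 in Tr. S was thus the highest LAMB1 column in Ribo-Seq and the second lowest in RNA.

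LAMB2, a chain of the neuromuscular junction and the kidney filter, had RNA levels of 68.98 FPKM in C12, 76.46 in Q, 41.06 in preS, 84.58 in C3, 46.63 in S and 61.10 in Tr. Its Ribo-Seq level was 87.07 FPKM in C12, 174.60 in Q, 99.86 in preS, 136.05 in C3, 103.50 in S and 69.75 in Tr. Q was highest in Ribo-Seq, and its log2 ratio to C12 of 1.00 lay just inside the threshold, where that of LAMB1, at 1.994-fold, lay just outside. LAMB3, which is part of epidermal laminin with LAMA3, was low. LAMB3 RNA was 4.70 FPKM in C12, 5.29 in Q, 8.94 in preS, 3.71 in C3, 2.06 in S and 4.55 in Tr. LAMB3 Ribo-Seq was 6.82 FPKM in C12, 6.80 in Q, 10.32 in preS, 3.93 in C3, 4.27 in S and 5.51 in Tr. preS was the highest LAMB3 column in both assays, and S was 2.21-fold below Tr in RNA.

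Summed by chain type, the laminin alpha chains were highest in C3 and Q and lowest in Tr. Their summed RNA was 31.4 FPKM in C12, 56.8 in Q, 29.8 in preS, 68.0 in C3, 23.7 in S and 17.1 in Tr. Tr was thus the lowest column of the summed alpha chains and the highest of LAMC1 in RNA. The ratio of LAMC1 to summed alpha chain RNA was 4.09 in C12, 1.91 in Q, 4.33 in preS, 3.01 in C3, 7.84 in S and 15.5 in Tr. In Ribo-Seq the ratio was 5.54 in C12, 2.91 in Q, 5.89 in preS, 4.14 in C3, 15.3 in S and 28.8 in Tr. Tr and S were highest and Q lowest in both assays, and Tr and S were above both proliferating columns. Among the integrins, ITGB1 RNA over the summed alpha chains stayed between 1.31 in Q and 1.81 in S.

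**Figure D2:**
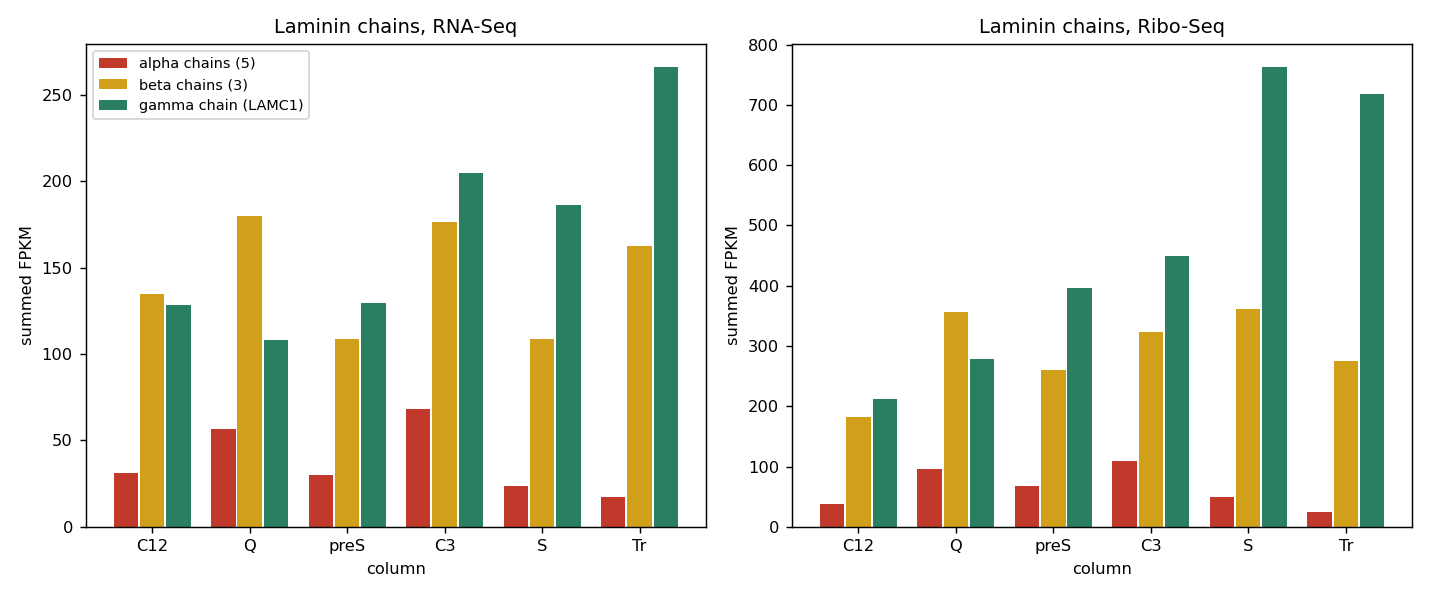
Summed FPKM of the 5 laminin alpha and 3 beta chains, and FPKM of the gamma chain LAMC1, in each of the 6 columns of RNA-Seq (left) and Ribo-Seq (right), with bars from 0 and no error bars because each group is 1 column. The alpha bars are lowest in Tr (17.1 FPKM in RNA), where the gamma bar is highest in RNA (266.07 FPKM).

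In quiescence against C12, 2 of the 22 chains tested were past 2-fold higher in RNA (ITGA10 and ITGA11) and none lower, where 4.0% of all transcripts were higher and 2.43% lower. In Ribo-Seq 7 of 21 were higher (ITGA8, ITGA10, ITGA11, LAMA2, LAMA4, LAMA5 and LAMB2) and none lower, against 8.98% and 8.13% of all transcripts. In TE 2 of 21 were higher (ITGA11 and LAMA5) and none lower, against 3.43% and 3.82%. With C3 as control 1 chain was higher (ITGA10) and 1 lower (ITGAV) in RNA, where 4.44% of all transcripts were higher and 3.94% lower. In Ribo-Seq 1 was then higher (ITGA10) and 2 lower (ITGAV and LAMA1), against 9.17% and 11.2%. The median log2 ratio of the chains was 0.43 in RNA and 0.65 in Ribo-Seq against C12, and was below 0 against C3, at -0.20 and -0.21.

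In pre-senescence 2 of 22 chains were higher in RNA (ITGB3 and LAMA1) and none lower, where 1.75% of all transcripts were higher and 2.0% lower. In Ribo-Seq 5 of 21 were higher (ITGA5, ITGB3, LAMA1, LAMA2 and LAMA5) and none lower, against 6.88% and 10.4%. ITGA2, at 1.999-fold, lay just under the threshold. In TE 3 of 21 were higher (ITGA11, LAMA2 and LAMA5) and none lower, against 5.09% and 8.6%. With C3 as control 2 chains were higher in RNA (ITGB3 and LAMB3) and 9 lower (ITGA1, ITGA8, ITGA11, ITGAV, LAMA2, LAMA3, LAMA4, LAMA5 and LAMB2), where 5.13% of all transcripts were higher and 6.48% lower. In Ribo-Seq the same control gave 2 higher (ITGB3 and LAMB3) and 4 lower (ITGA1, ITGA11, ITGAV and LAMA5), against 9.16% and 15.3%. Of the chains that were higher against C12, only ITGB3 was so against both controls.

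In senescence 1 of 22 chains was higher in RNA (ITGB3), where 6.94% of all transcripts were higher, and 9 were lower, where 13.2% were lower. The 9 were ITGA1, ITGA4, ITGA8, ITGA10, ITGA11, ITGAV, LAMA2, LAMA4 and LAMA5. In Ribo-Seq 4 of 21 were higher (ITGA2, ITGA6, ITGB1 and ITGB3), against 11.1% of all transcripts, and 6 were lower (ITGA1, ITGA10, ITGA11, LAMA1, LAMA4 and LAMA5), against 17.0%. All 5 higher ratios were past 2-fold against C12 as well, but of the lower ones only ITGA1 RNA and ITGA10 in both assays were. With C12 as control 4 chains were higher in RNA (ITGA5, ITGA6, ITGB1 and ITGB3) and 3 lower (ITGA1, ITGA10 and LAMB3), where 11.8% of all transcripts were higher and 17.9% lower. In Ribo-Seq 10 were then higher (ITGA2, ITGA3, ITGA5, ITGA6, ITGA11, ITGB1, ITGB3, LAMA2, LAMB1 and LAMC1) and 1 lower (ITGA10), against 18.2% and 23.7%. The median Ribo-Seq log2 ratio of the chains was -0.24 against C3 and 0.86 against C12, so that its sign depended on the control. Where the Ribo-Seq samples are read by their condition labels, each Ribo-Seq ratio takes the opposite sign, which gives 6 higher and 4 lower chains, against 17.0% and 11.1% of all transcripts. The median Ribo-Seq log2 ratio of all transcripts in S was -0.12, and centred on it 6 chains were higher and 5 lower, against 13.2% and 14.2%.

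In transformation 4 of 22 chains were higher in RNA (ITGA2, ITGA8, ITGA11 and ITGB3) and 6 lower (ITGA4, ITGAV, LAMA2, LAMA3, LAMA4 and LAMA5), where 4.49% of all transcripts were higher and 5.2% lower. In Ribo-Seq 4 of 21 were higher (ITGA2, ITGA6, ITGA8 and ITGA11) and 4 lower (ITGA4, LAMA2, LAMA4 and LAMA5), against 5.02% and 7.42%. With C12 as control 6 chains were higher in RNA (ITGA2, ITGA3, ITGA6, ITGA8, ITGA11 and LAMC1) and 1 lower (LAMA4), where 5.88% of all transcripts were higher and 4.66% lower. In Ribo-Seq 10 were then higher (ITGA1, ITGA2, ITGA3, ITGA6, ITGA8, ITGA11, ITGB1, ITGB3, LAMB1 and LAMC1) and 1 lower (LAMA4), against 10.8% and 10.6%. The laminin alpha chains had a median log2 ratio of -2.13 in Ribo-Seq against C3, with 0 of the 4 tested above 0, but of -0.086 against C12, with 2 of 4 above 0. In RNA the median of 5 was -1.59 against C3 and -0.93 against C12. In TE no chain was past 2-fold in either direction, against 0.935% higher and 1.87% lower of all transcripts.

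**Figure D3:**
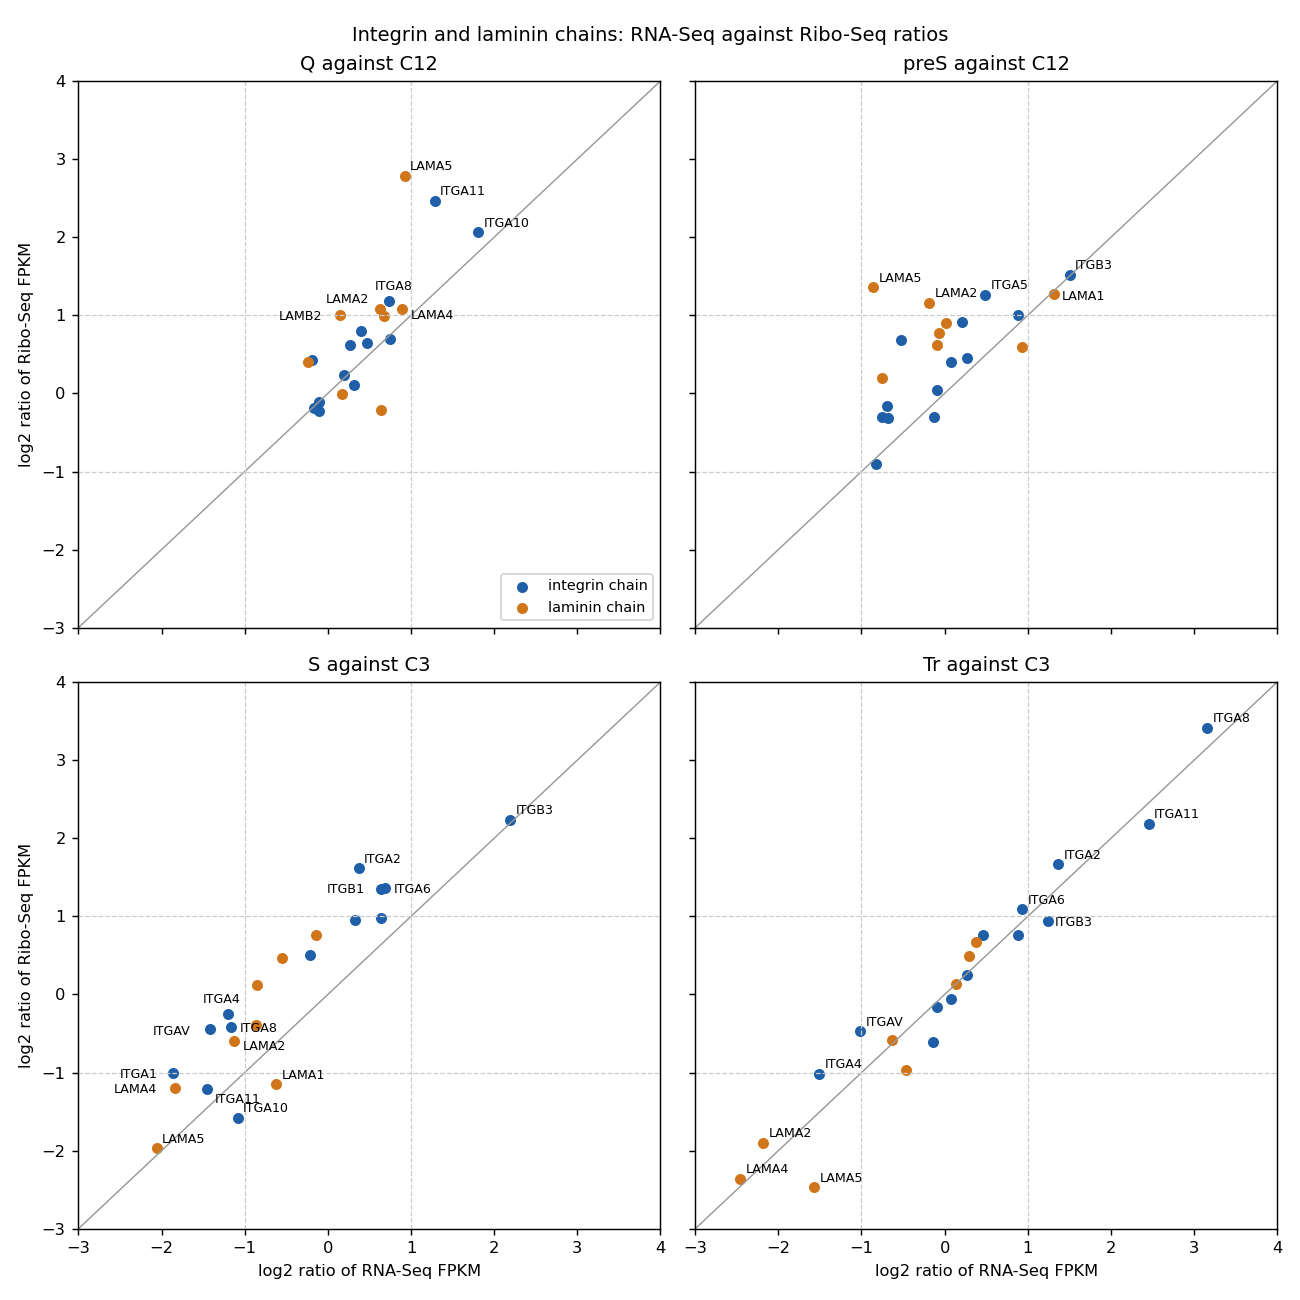
Log2 ratio of RNA-Seq (horizontal) against log2 ratio of Ribo-Seq (vertical) for the 21 chains that passed the filter in both assays, in each comparison with the proliferating cells of the same run. Dashed lines mark 2-fold, the diagonal marks equal ratios, and names are given for chains past 2-fold in either assay. In S most points lie above the diagonal, and in Tr ITGA8 and ITGA11 lie at the upper right and LAMA2, LAMA4 and LAMA5 at the lower left.

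The senescent and transformed cells, which both carried RASG12V, were in the same run and could be compared directly. In RNA 2 of 22 chains were higher in S (LAMA2 and LAMA3) and 4 lower (ITGA1, ITGA8, ITGA11 and LAMB3), where 8.05% of all transcripts were higher and 15.1% lower. In Ribo-Seq 4 of 21 were higher (ITGA5, ITGB3, LAMA2 and LAMA4) and 3 lower (ITGA1, ITGA8 and ITGA11), against 12.8% and 17.5%. In TE 1 was higher (LAMB1) and none lower, against 2.74% and 3.02%. ITGA11 in S was 14.9-fold below Tr in RNA and 10.5-fold in Ribo-Seq, the largest ratios after those of ITGA8.

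The proliferating columns differed from each other for these chains. C3 was past 2-fold above C12 for 5 of 22 chains in RNA (ITGA11, ITGAV, LAMA2, LAMA4 and LAMA5) and for 8 of 21 in Ribo-Seq, which added LAMA1, LAMB1 and LAMC1. No chain was past 2-fold lower. Among all transcripts 4.72% were higher and 3.05% lower in RNA, and 10.4% and 8.3% in Ribo-Seq. In TE 2 of 21 were higher (ITGA11 and LAMA5) and none lower, against 5.57% and 3.44%. C3 was above C12 in 19 of 22 chains in RNA, with a median log2 ratio of 0.54 against -0.07 for all transcripts. Matrix genes of fibroblasts were also higher in C3, with COL1A1 RNA at 1328.21 FPKM in C3 and 371.15 in C12 and DCN at 164.26 and 27.61. The 3 epithelial keratins in the table summed to 312.6 FPKM of RNA in C3 and to 105.2 to 208.2 FPKM elsewhere, with KRT19 at 39.76 FPKM in C3 and at most 4.43 elsewhere. The part of these genes in the difference was not tested.

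The TE of the chains was higher in senescence than in proliferation for most members. The median TE of the 21 chains was 0.52 in C12, 0.78 in Q, 0.95 in preS, 0.59 in C3, 1.27 in S and 0.75 in Tr. Over all transcripts it was between 0.26 (preS) and 0.44 (C3), so that the median of the chains lay above that of all transcripts in every column and farthest in S. The number of chains above the transcript median ranged from 11 in C12 to 18 in S. The difference in log2 TE between S and C3 was above 0 in 19 of 21 chains, with a median of 0.68 against -0.05 over all transcripts. Against C12 it was above 0 in 20 of 21, with a median of 0.81. Between S and Tr, a comparison that does not use C3, it was above 0 in 19 of 21, with a median of 0.51 against 0.03.

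Most integrin chains and most laminin chains had a higher TE in S. The median TE difference of S to C3 was 0.71 in 13 integrin chains, with 12 above 0, and 0.59 in 8 laminin chains, with 7 above 0. Within the laminins it was 0.31 for the 4 alpha chains, 0.97 for the 3 beta chains and 0.90 for LAMC1. The exceptions were ITGA10, whose S values were both at the floor, and LAMA1. Most of these differences were below 2-fold, and 2 chains were past 2-fold higher (ITGA2 and LAMB1) and none lower, where 2.83% of all transcripts were higher and 6.13% lower. With the condition labels of the exchanged samples the median TE difference was 1.25 and 17 chains were past 2-fold, 11 higher and 6 lower, where the median of all transcripts was 0.12 and 27.2% were higher and 20.7% lower.

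ITGA2 had the highest TE of all chains in S. Its TE was 1.36 in C12, 1.32 in Q, 1.48 in preS, 1.54 in C3, 2.79 in S and 1.85 in Tr. For LAMB1 the TE was 0.52 in C12, 0.84 in Q, 1.36 in preS, 1.05 in C3, 2.08 in S and 1.05 in Tr. LAMC1 had a TE of 0.72 in C12, 1.37 in Q, 1.61 in preS, 1.13 in C3, 2.04 in S and 1.43 in Tr. S was thus the highest column for these 3 chains, as it was for ITGB1, at 1.58 against 0.81 to 1.25 elsewhere. LAMA5 was an exception, with its highest TE of 1.43 in preS and 0.55 in S. Its TE was 1.08 in Q, -0.79 in C12, 0.46 in C3 and -0.44 in Tr, the widest spread among the members. It was not the only exception. ITGA5, LAMA2 and LAMB2 were also highest in preS, at 0.95, 1.66 and 1.28 against 0.64, 1.35 and 1.15 in S. The TE of LAMA1 was highest in Tr and that of ITGA10 in C3.

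In the other conditions the median TE difference was smaller. It was 0.26 in Q (14 of 21 above 0, all transcripts -0.06), 0.46 in preS (17 of 21, all transcripts -0.15) and 0.05 in Tr (12 of 21, all transcripts -0.07). Against the other proliferating column it was 0.04 in Q, 0.37 in preS and 0.26 in Tr. C3 itself had a median TE difference of 0.34 to C12, with 14 of 21 above 0 and a median of 0.03 over all transcripts. The TE difference lay above the median difference of all transcripts in 19 of 21 chains in preS, as in S.

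Other genes of the adhesion pathway were taken from lists of integrin adaptors, of basement membrane and integrin ligands, and of other laminin receptors and integrin partners. Of 20 ligands 17 were in the table and 16 passed the filter. In S their TE difference was above 0 in 15 of 16, with a median of 0.52, and in 11 of 11 of the other receptors and partners, with a median of 0.42. Of 30 adaptors, which bind integrin tails inside the cell, 26 were in the table and 25 passed, and 12 of 25 were above 0, with a median of -0.04. The ligands were not higher in TE in S alone. In Q 15 of 16 ligands were above 0 (median 0.54), with 8 of 11 receptors and partners (0.14) and 16 of 25 adaptors (0.36). In preS it was 13 ligands (0.43), 9 receptors and partners (0.16) and 15 adaptors (0.08). In Tr it was 5 (-0.04), 6 (0.04) and 13 (0.11).

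In RNA the ligands were mostly lower in S, with 9 of 16 past 2-fold lower and 2 higher, against 13.2% and 6.94% of all transcripts. COL4A1, a collagen chain of the basement membrane, had RNA levels of 33.34 FPKM in C12, 16.31 in Q, 12.12 in preS, 92.5 in C3, 22.99 in S and 122.38 in Tr. Its partner COL4A2 had 67.33 FPKM in C12, 33.28 in Q, 27.18 in preS, 152.33 in C3, 27.13 in S and 186.52 in Tr. Both were highest in Tr, unlike the laminin alpha chains, and lower than in C12 in the other 3 conditions. SPP1 (osteopontin), an RGD ligand of ITGAV with ITGB3, had RNA levels of 5.47 FPKM in C12, 4.33 in Q, 43.21 in preS, 2.23 in C3, 22.76 in S and 3.10 in Tr. SPP1 was thus high in preS and S, the columns in which ITGB3 was highest. In Q 3 ligands were past 2-fold lower and none higher, against 2.43% and 4.0% of all transcripts. In preS 5 were lower and 1 higher, against 2.0% and 1.75%, and in Tr 3 were lower and none higher, against 5.2% and 4.49%.

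Of the other receptors and partners, CD9, a tetraspanin that binds integrins in the membrane, had RNA levels of 39.5 FPKM in C12, 101.08 in Q, 61.99 in preS, 101.99 in C3, 271.84 in S and 53.08 in Tr. S was the highest column, and CD9 was 1 of 2 past 2-fold higher there among the 11 tested of this list. With 1 lower, this stood against 6.94% higher and 13.2% lower of all transcripts. The laminin receptor BCAM had RNA levels of 5.20 FPKM in C12, 5.52 in Q, 1.14 in preS, 6.90 in C3, 1.04 in S and 3.53 in Tr. It was the one past 2-fold lower in preS and S, where its values lay near the floor. In preS none of the 11 was higher, where 1.75% of all transcripts were higher and 2.0% lower. Of the 25 adaptors, 7 were past 2-fold lower in S and 1 higher, against 13.2% and 6.94% of all transcripts, and 4 were lower in Tr and none higher, against 5.2% and 4.49%. TNS1 (tensin), which links integrins to actin, was at 4.38 FPKM of RNA in C12, 5.98 in Q, 3.23 in preS, 20.73 in C3 and 3.77 in S, with Tr at the floor. Its C3 value stood apart from all other columns, C12 included.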

How the data were processed

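The deposited values were FPKM of 9 RNA-Seq and 8 Ribo-Seq samples in 12 columns. The authors aligned reads with Bowtie (version not given in the sources used here) to Ensembl transcripts of hg19, keeping 1 transcript per gene and uniquely mapped reads. RNA FPKM used reads on the whole transcript and Ribo-Seq FPKM those on the coding sequence, so that a gene's TE also holds that difference. They joined 2 samples in each of 5 columns by a method not given, set FPKM below 1.0 to 1.0 and kept transcripts with enough reads in both assays in at least 1 condition. Flooring understates ratios of low chains. Per the study's methods the RNA libraries of the later run were read from a single end and the earlier ones from both ends, which cannot be told apart from the run.

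All 12 columns were mapped to samples by title. Log2 ratios were formed without a pseudocount from transcripts averaging at least 2 FPKM over the 6 columns of an assay (both assays for TE) and called at 2-fold. With 1 column a group no test was run, and the number of columns limits the precision. Calculations used Python 3.11.15, pandas 2.3.3 and numpy 2.4.6, and the calling was checked on simulated data. Alternatives were no filter, a mean of 10 FPKM, a pseudocount of 1, centring on the median, a fold of 1.5, the other proliferating column, and the exchanged Ribo-Seq labels.

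Of the 24 members 23 were reported. The other member, and the gene of a further knockdown, are not reported here. Reported members past 2-fold in RNA or Ribo-Seq were given in full. Of the pathway lists, up to 4 genes past 2-fold in the most comparisons were eligible to be named. Members, lists and rules were chosen with earlier results of these data known. Promoters came from RefSeq (GRCh38.p14). The marker lists gave, in order, 10 of 10 fibroblast, 3 of 7 epithelial, 0 of 5 endothelial and 1 of 7 leukocyte genes.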

Additional observations from a re-analysis of the deposited data

Results flagged for a closer look

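ITGA8 and ITGA11 had opposite directions in S and Tr against the same proliferating column, C3, in the only column of each group. ITGA8 RNA had a log2 ratio of -1.17 in S and 3.16 in Tr, where the S value of 1.10 FPKM lay near the floor. In Ribo-Seq the ITGA8 log2 ratio was -0.42 in S, which was not past 2-fold, and 3.42 in Tr. ITGA11 RNA had a log2 ratio of -1.45 in S and 2.45 in Tr, and in Ribo-Seq -1.21 and 2.19. The difference between the effects was not tested, because each group is 1 column, and both ratios share the C3 control. The transformed cells also differ from the senescent cells in their knockdowns, SV40 small T and the way RASG12V was introduced, which cannot be told apart. Against C12 the ITGA11 Ribo-Seq log2 ratio of S was 1.41 (2.66-fold), so that the opposite direction did not hold there, while in RNA the log2 ratio in S was -0.71 for ITGA8 and -0.09 for ITGA11.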

How the results depend on the processing

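No paired analysis was possible because the table has 1 column for each group, run and assay, and for the same reason no replicate could be left out. Counts of chains past 2-fold are given in the order RNA, Ribo-Seq, TE unless named. Against the other proliferating column the counts were 3 in Ribo-Seq and 1 in TE for Q, 11 in RNA and 0 in TE for preS, and 7 in TE for S. In Q the log2 ratio of ITGA11 became -0.074 in RNA, -0.15 in Ribo-Seq and -0.079 in TE, and that of LAMA2 and LAMA4 in Ribo-Seq became -0.62 and -0.21. In preS, LAMA2 and LAMA5 in Ribo-Seq became -0.54 and -1.13 and ITGA11 in TE -0.050. In S, LAMA2 RNA became 0.069, and in Ribo-Seq ITGA11 became 1.41, LAMA1 0.013, LAMA4 0.10 and LAMA5 0.52. In Tr, ITGAV RNA became 0.35 and LAMA5 Ribo-Seq 0.019. With the Ribo-Seq columns of S and C3 exchanged, TE counts were 17 for S, 10 for Tr, 7 for S against Tr and 9 for C3 against C12, and the median TE difference of S was 1.25. The Ribo-Seq log2 ratios in S then became 1.00 for ITGA1, 1.58 for ITGA10, 1.21 for ITGA11, -1.62 for ITGA2, -1.36 for ITGA6, -1.35 for ITGB1, -2.24 for ITGB3, 1.15 for LAMA1, 1.19 for LAMA4 and 1.97 for LAMA5. ITGA2 TE in S became -1.99, ITGA6 Ribo-Seq in Tr -0.27 and ITGB3 Ribo-Seq in S against Tr -0.94. The sign changes of the Ribo-Seq ratios of S to C3 under the exchange follow by construction. The changes under the other control hold the difference between C12 and C3. A mean of at least 10 FPKM, which leaves fewer chains to test, gave 0, 3 and 0 for Q, 1, 3 and 0 for preS, 4 in RNA and 6 in Ribo-Seq for S, 5 and 5 for Tr, 0 and 3 for S against Tr, and 2, 5 and 0 for C3 against C12. A fold of 1.5 gave 10, 12 and 6 for Q, 10, 13 and 9 for preS, 16 in RNA and 13 in TE for S, 14 in Ribo-Seq and 1 in TE for Tr, 12 in RNA and 9 in TE for S against Tr, and 10, 14 and 4 for C3 against C12. Centring gave 8 in Ribo-Seq and 5 in TE for preS and 5 in TE for S, and a pseudocount of 1 gave 4 in Ribo-Seq and 1 in TE for Q and 1 in TE for C3 against C12. Without a filter, S against Tr had 2 in TE. The other 90 recomputed totals and medians stayed within 1.5 times the reported total or within 0.24 of the reported median TE difference. The share of all transcripts under a setting is given only where it stands beside a count in the sections above. For the other counts, among them those at a fold of 1.5 and a mean of 10 FPKM, it was not computed. Such counts show only how far the totals moved. A mean of 10 FPKM left 13 chains in RNA. Totals do not show direction. Under the other control they hold 10 higher and 1 lower in place of 4 and 6 for S and of 4 and 4 for Tr in Ribo-Seq, 4 and 3 in place of 1 and 9 for S and 6 and 1 in place of 4 and 6 for Tr in RNA, and 2 and 4 in place of 5 and 0 for preS in Ribo-Seq. The reads behind each value are unknown, and low chains such as LAMA3 rest on values near the floor.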
